A study of Rattus norvegicus with 10 samples.

Results

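The genes of mast cell granule proteases and of the receptors that mark mast cells were examined in the trigeminal ganglion (TG) of rats with oral ulcerative mucositis (OUM). The 10 genes were the chymases and chymase relatives *Mcpt1l1*, *Mcpt2*, *Mcpt4*, *Mcpt10* and *Cma1*, the carboxypeptidase *Cpa3*, the tryptases *Tpsab1* and *Tpsb2*, and the receptor genes *Ms4a2* and *Kit*. They are 10 of the 15507 genes with a symbol on the array, each was read by 1 probe, and each probe was found by its transcript accession. They were chosen by looking at the difference between the OUM and naive arrays of this same experiment, so that difference is described here and carries no test of its own. *Mcpt1l1* was in addition picked by the study on these arrays.

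TG RNA of 5 OUM model rats and 5 naive rats, all male Wistar rats, was read with 1 single-colour array per rat. OUM model rats (8 weeks old, labelled Stomatitis) were anesthetized with sodium pentobarbital and had filter paper with 50% acetic acid laid on the labial fornix of the inferior incisors for 30 s, and their TGs were taken on day 2. Naive rats of the same age (labelled Control) received the anesthesia alone. Both groups were perfused with cold saline before whole TGs were dissected, so each RNA held neurons, glia, meninges and vessel tissue, and acid was applied to the mouth and not to the ganglion. In such whole tissue, the number of mast cells and the RNA per mast cell cannot be told apart.

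Mast cells are immune cells of connective tissue and mucosa that lie along vessels, nerves and meninges. Their granules store histamine, heparin and several proteases, which are released when the IgE receptor or other surface receptors are engaged. Chymases and tryptases are serine proteases, carboxypeptidase A3 trims the ends of peptides, and the mixture of proteases differs between mast cells of connective tissue and those of mucosa. In rodents the chymase genes form a family of close copies that lie together with granzyme genes in one locus.

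The sequences before the start of the genes are shown because the chymases, *Cpa3* and the tryptases are read together below, and because the copies of the chymase family resemble each other in sequence. RefSeq sequences of the GRCr8 build held 8 of the 10 genes, and *Mcpt10* and *Ms4a2* are named only. Each line gives the 250 bases before the annotated start, 5′ to 3′ on the strand of the gene, with the letters GATAA (or TTATC, the same word on the other strand) in capitals. GATAA is the core word bound by GATA factors, a family to which the mast cell factor GATA2 belongs.
Mcpt1l1 (chr15:33876896-33877145, minus strand): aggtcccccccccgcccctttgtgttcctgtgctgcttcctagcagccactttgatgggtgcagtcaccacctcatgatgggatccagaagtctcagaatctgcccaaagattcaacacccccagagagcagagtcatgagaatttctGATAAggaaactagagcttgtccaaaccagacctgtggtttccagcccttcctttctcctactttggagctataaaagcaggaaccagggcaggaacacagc
Mcpt2 (chr15:33841356-33841605, plus strand): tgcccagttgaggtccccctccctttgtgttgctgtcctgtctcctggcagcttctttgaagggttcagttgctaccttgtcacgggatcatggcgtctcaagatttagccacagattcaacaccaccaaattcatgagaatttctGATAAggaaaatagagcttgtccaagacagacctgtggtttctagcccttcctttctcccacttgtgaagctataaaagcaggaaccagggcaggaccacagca
Cma1 (chr15:33390134-33390383, minus strand): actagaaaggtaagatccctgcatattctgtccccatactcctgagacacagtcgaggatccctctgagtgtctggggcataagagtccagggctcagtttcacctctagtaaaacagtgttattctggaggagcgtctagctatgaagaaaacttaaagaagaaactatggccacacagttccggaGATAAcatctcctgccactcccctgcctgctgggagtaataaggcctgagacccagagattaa
Cpa3 (chr2:104673238-104673487, minus strand): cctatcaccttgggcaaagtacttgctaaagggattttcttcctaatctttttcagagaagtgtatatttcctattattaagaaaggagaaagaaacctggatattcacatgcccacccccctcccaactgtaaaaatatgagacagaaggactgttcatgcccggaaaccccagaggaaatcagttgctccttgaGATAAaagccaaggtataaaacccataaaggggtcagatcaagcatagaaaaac
Tpsab1 (chr10:14867303-14867552, minus strand): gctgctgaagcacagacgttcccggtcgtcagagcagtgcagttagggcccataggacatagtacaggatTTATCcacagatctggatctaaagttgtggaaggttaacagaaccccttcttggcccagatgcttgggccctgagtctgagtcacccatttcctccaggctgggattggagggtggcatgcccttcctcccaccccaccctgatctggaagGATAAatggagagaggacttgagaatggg
Tpsb2 (chr10:14886060-14886309, plus strand): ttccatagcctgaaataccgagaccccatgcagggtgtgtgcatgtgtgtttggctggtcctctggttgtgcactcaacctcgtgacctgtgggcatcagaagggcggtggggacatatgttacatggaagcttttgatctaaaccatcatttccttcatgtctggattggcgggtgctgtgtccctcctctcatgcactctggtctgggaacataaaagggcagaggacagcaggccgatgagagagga
Mcpt9 (chr15:33827180-33827429, plus strand): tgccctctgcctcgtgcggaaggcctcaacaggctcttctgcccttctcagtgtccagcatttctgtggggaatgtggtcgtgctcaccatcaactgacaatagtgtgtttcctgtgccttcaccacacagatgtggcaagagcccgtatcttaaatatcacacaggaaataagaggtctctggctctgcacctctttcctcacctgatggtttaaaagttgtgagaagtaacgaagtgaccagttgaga

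The word GATAA stood on either strand in 6 of the 8 members with a sequence, against 23.5% of the 33469 promoters of that length in the table. The TATA word TATAAA (or TTTATA) stood in 4 of the 8, against 12.9% of all promoters, and the E-box word CANNTG in 6 of the 8, against 65.5% of all. *Mcpt1l1*, *Mcpt2* and *Mcpt4* each held both GATAA and TATAAA. They are close copies and were counted as separate members, so nothing is read from these shares. *Tpsb2*, which is read together with the others below, and *Kit* held no GATAA. *Mcpt1l1* and *Mcpt2* were 77.1% identical over the aligned window, and *Mcpt1l1* and *Mcpt4* 73.6%. *Cma1*, a chymase of the same locus on chromosome 15, was 53.7% identical to *Mcpt1l1*, 52.2% to *Mcpt2* and 49.3% to *Mcpt4*, and the tryptases *Tpsab1* and *Tpsb2*, both on chromosome 10, were 55.7% identical. These compare with 43.7% to 53.1% for pairs of different families. *Mcpt9*, a relative outside the member list shown for contrast, has no GATAA in this window and was 90.3% identical to *Mcpt8*. A matching word is a description of the letters and not of binding.

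The labels matched the tissue. All 8 sensory neuron markers were well above background on all 10 arrays, and their summed signal was 605 to 755 on OUM arrays and 663 to 721 on naive arrays, in multiples of the 75th percentile of each array. The summed signal of 6 pituitary hormone genes was 1.48 to 36.5 on OUM arrays, highest on OUM arrays 1 and 2 (26.9 and 36.5), and 0.45 to 29.5 on naive arrays, highest on naive array 1 (29.5). That of 7 neutrophil genes was 0.402 to 4.59 on OUM arrays and 0.498 to 8.4 on naive arrays, highest on naive array 1, and that of 3 basophil genes was 1.32 to 1.72 and 1.11 to 2.83. Arrays lay on 2 slides, the first with 3 OUM and 4 naive arrays and the second with 2 OUM arrays and 1 naive array.

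All values below are log2 signal relative to the 75th percentile of the array, so a value of -4 is 4 doublings below that percentile and a difference of 1 is a doubling. Levels of different probes cannot be set against each other, and only arrays are compared. Probes entered the comparison when every array of either group read them well above background, as 8 of the 10 did. *Mcpt2* and *Cpa3* did so through the OUM arrays alone.

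In both groups the ganglion held measurable RNA of chymases and both tryptases. That of carboxypeptidase A3 was well above background on 5 OUM and 3 naive arrays. On OUM arrays the means of *Cma1*, *Mcpt1l1*, *Cpa3*, *Tpsab1* and *Tpsb2* were higher than on naive arrays, by 0.28 to 0.69. The arrays of the groups overlapped for every gene. The means of *Mcpt2*, *Mcpt10* and *Kit* differed by 0.06 or less. *Mcpt4* and *Ms4a2* were not well above background on any array.

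*Mcpt1l1* encodes a protease that resembles mast cell protease 1, a chymase of connective tissue mast cells in the rat. Its signal was -4.29, -3.83, -3.61, -4.14 and -3.45 on OUM arrays 1 to 5 and -4.41, -3.92, -4.49, -4.58 and -5.11 on naive arrays 1 to 5. All 5 OUM arrays lay above the naive mean and 3 of them above every naive array, while naive array 2 reached into the OUM range. The means were -3.87 ± 0.36 and -4.50 ± 0.43 (SD, n = 5 each), a difference of 0.64 (SE 0.222), or 1.55-fold. Within slide 1 the difference was 0.57 and within slide 2 it was 0.79. The probe had 1 spot per array, against 2 for the other 9 members.

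*Cma1* encodes the chymase whose relative in humans is the only mast cell chymase. Its signal was -3.81, -3.30, -3.60, -3.68 and -2.91 on OUM arrays and -3.59, -3.91, -4.69, -3.69 and -4.87 on naive arrays. OUM array 5 was the highest and naive arrays 3 and 5 were the lowest, and naive arrays 1 and 4 fell inside the OUM range. The means were -3.46 ± 0.36 and -4.15 ± 0.59, a difference of 0.69 (SE 0.275, 1.61-fold). Without naive array 5 the difference was 0.50, and within slides it was 0.69 and 0.39.

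*Mcpt2* encodes a chymase that marks mucosal mast cells in the rat. The RefSeq table lists the accession of its probe under the symbol *Mcpt1* with rMCP-2 as a synonym, and the synonym was the basis for the match. Its signal was -6.39, -5.35, -5.46, -5.23 and -5.25 on OUM arrays and -5.32, -5.47, -5.66, -5.79 and -5.55 on naive arrays. OUM array 1 was the lowest of all 10, and the other 4 OUM arrays lay above naive arrays 2 to 5, with naive array 1 among them. The means were -5.54 ± 0.48 and -5.56 ± 0.18, a difference of 0.02 (SE 0.207) that became 0.23 without OUM array 1. Within slide 1 the difference was -0.23 and within slide 2 it was 0.54.

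*Mcpt4*, a connective tissue chymase in the mouse, was not well above background on any of the 10 arrays. Its signal was -7.92 to -6.74 on OUM arrays and -8.24 to -7.14 on naive arrays, and no fold is given.

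*Mcpt10* belongs to a branch of the locus with *Mcpt8* and *Mcpt9* whose products are closer to granzymes than to chymases, and mouse *Mcpt8* is a marker of basophils. Its signal was -4.21, -3.79, -4.46, -3.70 and -4.98 on OUM arrays and -2.54, -3.56, -5.05, -5.01 and -5.31 on naive arrays. Naive arrays 1 and 2 were higher than every OUM array and naive arrays 3, 4 and 5 were lower than every OUM array. The naive SD of 1.20, against 0.52 on OUM arrays, was the largest of any member, and the means were -4.23 and -4.29. The difference of 0.06 (SE 0.517) became 0.50 without naive array 1 and -0.19 without naive array 5.

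*Cpa3*, carboxypeptidase A3, is stored with chymase in mast cell granules and is among the most specific mast cell transcripts. Its signal was -5.78, -5.24, -5.20, -5.52 and -4.89 on OUM arrays and -5.69, -5.53, -5.73, -5.61 and -6.64 on naive arrays. On 4 of 5 OUM arrays it was above every naive array, and OUM array 1 lay within the naive range. The means were -5.33 ± 0.34 and -5.84 ± 0.45, a difference of 0.51 (SE 0.225, 1.43-fold). Naive array 5 stood 0.91 below the next naive array, and without it the difference was 0.32, smaller by more than 1.5 times. *Cpa3* was well above background on 5 OUM and 3 naive arrays.

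The tryptase genes *Tpsab1* and *Tpsb2* encode the trypsin-like proteases that are stored as tetramers on heparin. *Tpsab1* gave -4.63, -3.79, -4.11, -4.45 and -3.82 on OUM arrays and -4.58, -4.34, -4.85, -4.31 and -5.20 on naive arrays. OUM arrays 2, 3 and 5 were above every naive array, and OUM arrays 1 and 4 fell among the naive arrays. The means were -4.16 ± 0.37 and -4.66 ± 0.37, a difference of 0.50 (SE 0.211, 1.41-fold), with 0.56 within slide 1 and 0.17 within slide 2. *Tpsb2* gave -5.10, -4.58, -4.73, -4.77 and -4.33 on OUM arrays and -4.92, -4.77, -5.05, -5.09 and -5.07 on naive arrays. OUM array 1 was the lowest of all 10 and the other 4 OUM arrays lay at or above the highest naive array. The means were -4.70 ± 0.28 and -4.98 ± 0.14, a difference of 0.28 (SE 0.127, 1.21-fold). Without OUM array 1 the difference was 0.38, and within slides it was 0.15 and 0.54.

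Of the receptors, only *Kit* could be compared between the groups, and its group means were alike. *Ms4a2*, the beta chain of the high-affinity IgE receptor, was not well above background on any array, with -7.56 to -7.28 on OUM arrays and -8.03 to -6.47 on naive arrays. *Kit*, the receptor of stem cell factor, on which mast cells depend, is also made by other cells, among them some sensory neurons. Its signal was -2.22, -2.21, -2.31, -2.40 and -2.30 on OUM arrays and -2.37, -2.15, -2.18, -2.34 and -2.42 on naive arrays. All 10 arrays lay within 0.27 of each other and the difference was 0.00 (SE 0.0643), with means of -2.29 ± 0.08 and -2.29 ± 0.12.

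**Figure D1:**
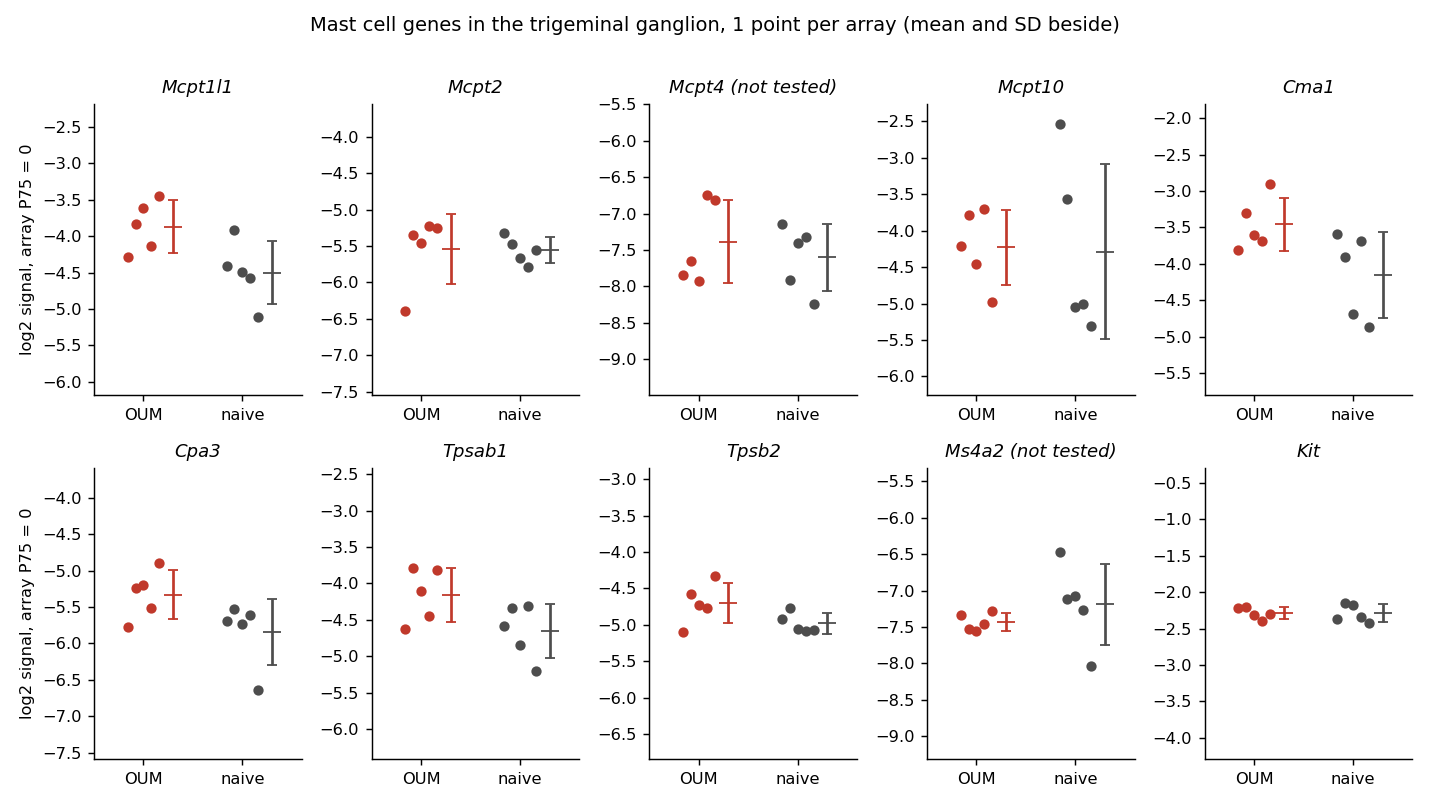
Signal of the 10 genes on each array (vertical axis, log2 relative to the 75th percentile of the array, each panel spanning 4 log2 units), with OUM arrays in red on the left and naive arrays in grey on the right, arrays 1 to 5 running left to right. Bars are means with SD (n = 5). The groups overlapped for every gene, *Mcpt10* spread most on naive arrays, and *Kit* stayed within 0.27.

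Over the fit of all 21521 probes with limma, 0 of the 8 tested members passed an adjusted p of 0.05, as did 0% of all probes. At an unadjusted p under 0.05, 4 of the 8 were higher on OUM arrays and 0 were lower, against 4.65% of all probes higher and 3.72% lower. By the methods' t-test 0 of the 8 passed after adjustment and 1 passed unadjusted, against 0.00465% of all probes after adjustment and, unadjusted, 3.85% higher and 3.43% lower. For 0 of the 8 did the OUM arrays all lie above or all below the naive arrays, against 0.929% of all probes above and 0.711% below. The median difference of the 8 was 0.39, against 0 over all probes tested, and a difference over 0.5 was found in 3 of the 8 and in 0.73% of all probes. Since the members were chosen on this contrast, nothing is read from these counts. With the normexp background correction the differences of *Cma1*, *Mcpt1l1*, *Cpa3*, *Tpsab1* and *Tpsb2* were 0.43, 0.33, 0.17, 0.24 and 0.14, each less by more than 1.5 times. That setting also added an offset of 50 signal units to each spot, and an offset shrinks log2 differences of dim probes. The processed signal of *Cpa3*, for example, was 19.2 to 71.7 units. The part of the offset in the smaller differences was not tested.

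**Figure D2:**
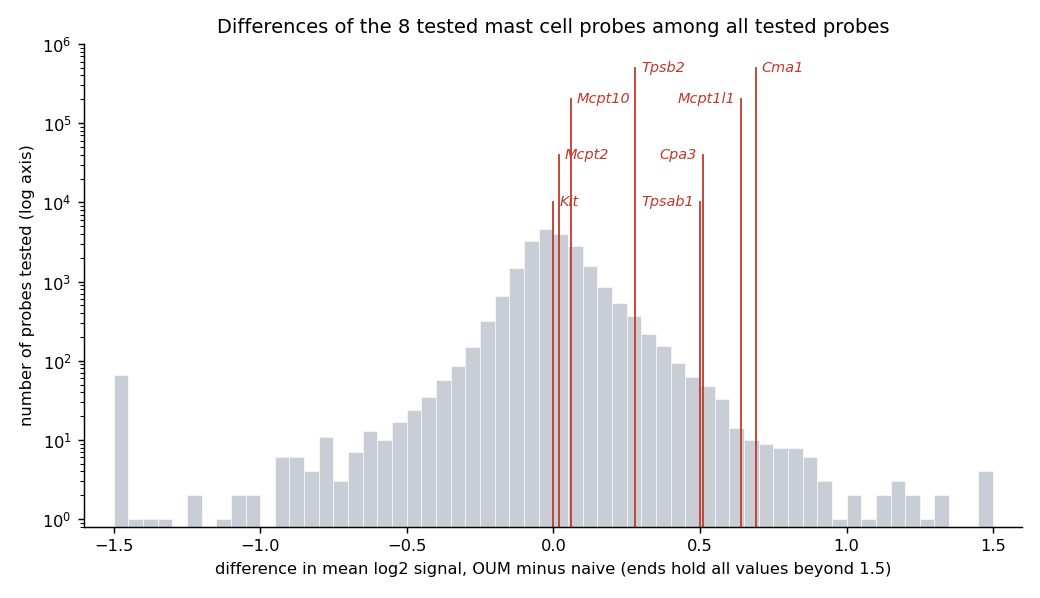
Difference in mean log2 signal, OUM minus naive (horizontal axis), as a histogram of all 21521 tested probes (grey, number of probes on a log axis) with a red line for each of the 8 tested mast cell genes. *Kit*, *Mcpt2* and *Mcpt10* lay at the centre and *Cma1* (0.69) and *Mcpt1l1* (0.64) in the upper tail.

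The contrast chose the genes, but it did not use how they vary among rats of one group. After each group's mean was subtracted, *Mcpt1l1*, *Cma1*, *Cpa3*, *Tpsab1* and *Tpsb2* deviated together. All 5 were below their group mean on OUM array 1 (-0.47 to -0.35) and above it on OUM array 5 (0.34 to 0.55), and all 5 were below it on naive array 5 (-0.79 to -0.09) and above it on naive arrays 1 and 2. *Cpa3* followed *Mcpt1l1* with Pearson's r = 0.90 and Spearman's rho = 0.85 over 10 arrays. It followed *Tpsab1* with r = 0.88 and rho = 0.80, and *Cma1* with r = 0.78. No p-value is given for these pairs, since *Cpa3* passed the filter through the OUM arrays alone. *Cma1* followed *Tpsab1* with r = 0.85 (exact permutation within groups, adjusted p = 0.0426 over 78 pairs) and rho = 0.80 (adjusted p = 0.214). *Mcpt1l1* followed *Tpsb2* with r = 0.77 (exact permutation, adjusted p = 0.0494) and rho = 0.90 (adjusted p = 0.084).

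Over the 10 pairs of these 5 genes r was 0.61 to 0.90 with a median of 0.78, and rho was 0.45 to 0.90. Within slide 1 (7 arrays) r was 0.66 to 0.94. Without the 2 arrays farthest from the median of the first gene, in most pairs naive array 5 and OUM array 5, r was 0.23 to 0.85, lowest for *Mcpt1l1* with *Cma1* (0.65 with all arrays). Among all 28 pairs of members, 5 passed an adjusted p of 0.05 by r and 0 by rho, against 8 and 3 of all 78 pairs. Of the 5, only *Cma1* with *Tpsab1* and *Mcpt1l1* with *Tpsb2* did not involve *Cpa3*. *Cpa3* passed the filter through the OUM arrays alone and was not well above background on naive arrays 4 and 5. The p-values of its pairs rest in part on those readings, so they are not printed and no support is drawn from them. Over the other 8 arrays its r was 0.92 with *Mcpt1l1*, 0.88 with *Tpsab1*, 0.65 with *Cma1* and 0.94 with *Tpsb2*, values given with no test. These pairs were examined after the values had been seen, and all arrays share their labelling and scanning. The correlations of *Kit* with these 5 genes were 0.03 to 0.48, and none passed the adjusted threshold. Those of *Mcpt2* were 0.79 with *Tpsb2*, inside the range of the 5 genes, and 0.35 to 0.45 with the rest of them. *Tpsb2* also followed *Prtn3*, which is not a member, with r = 0.70. None of these passed the adjusted threshold either.

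The mean of the 5 genes was -4.72, -4.15, -4.25, -4.51 and -3.88 on OUM arrays and -4.64, -4.49, -4.96, -4.66 and -5.38 on naive arrays. OUM arrays 2, 3 and 5 lay above every naive array and OUM array 1 below naive arrays 1, 2 and 4. The means were -4.30 ± 0.33 and -4.83 ± 0.35 (SD, n = 5 each) and the difference was 0.52, with 0.49 within slide 1, 0.46 within slide 2 and 0.38 to 0.63 when each array was left out in turn. Without the 3 arrays richest in pituitary hormone genes it was 0.66. These 5 genes were put together after their values were seen, so the mean is a description.

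**Figure D3:**
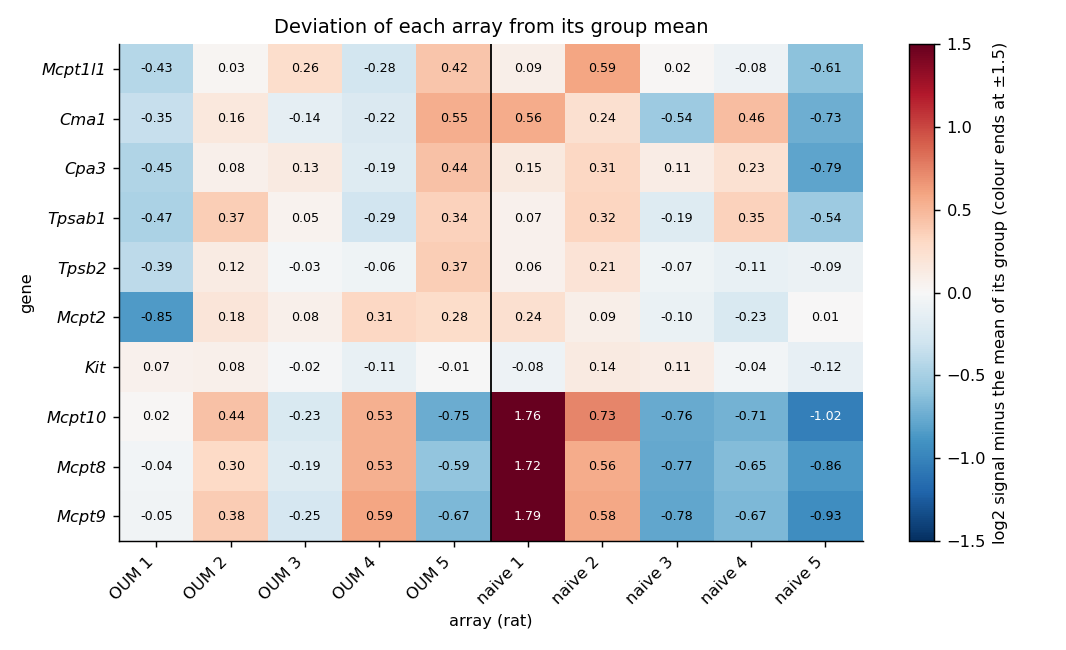
Deviation of each array (columns, OUM left of the line and naive right of it) from the mean of its group, in log2 signal, for 8 tested members and the relatives *Mcpt8* and *Mcpt9* (rows). The 5 upper genes are all blue on OUM array 1 and naive array 5 and all red on OUM array 5, while *Mcpt10*, *Mcpt8* and *Mcpt9* are highest on naive array 1.

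Within groups, *Mcpt10* followed *Mcpt9* with r = 1.00 and *Mcpt8* with r = 0.99 (rho = 1.00 for both, exact permutation p = 6.94e-05 by r, the smallest these orders allow, adjusted p = 0.00181), and without the 2 farthest arrays r was still 1.00 and 0.99. With the 5 genes above its r was 0.14 to 0.43 over all arrays, -0.27 to 0.22 without the 2 arrays farthest from the median, and 0.46 to 0.97 within slide 1, highest with *Cma1*. None of those 5 pairs passed the adjusted threshold, and whether these correlations differ from those among the 5 genes was not tested. *Mcpt8* gave -0.75, -0.40, -0.89, -0.18 and -1.30 on OUM arrays and 1.02, -0.14, -1.48, -1.35 and -1.56 on naive arrays, with the same naive arrays high and low as for *Mcpt10*, and *Mcpt9* ran from -2.68 to -1.42 on OUM arrays and from -2.94 to -0.22 on naive arrays. *Mcpt8*, *Mcpt9* and *Mcpt10* are close copies, and a probe of one may read RNA of another. Probe sequences were not used here, so 3 genes with one pattern and 1 gene read 3 times cannot be told apart.

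The summed signal of the neutrophil list was 1.75, 4.59, 0.906, 2.18 and 0.402 on OUM arrays 1 to 5 and 8.4, 3.28, 1.28, 0.498 and 1.18 on naive arrays 1 to 5. As for *Mcpt10*, it was highest on naive arrays 1 and 2 among naive arrays, and on OUM arrays 2 and 4 among OUM arrays, with OUM array 5 lowest. The order was not the same throughout. The lowest naive array was 4 for the list and 5 for *Mcpt10*, and the highest OUM array was 2 for the list and 4 for *Mcpt10*. Of the 7 neutrophil genes, 3 were well above background on all 10 arrays. The basophil list was also highest on naive array 1, one of the 3 arrays rich in pituitary genes. That peak came from *Mcpt8*, at 1.02 there, so it repeats the *Mcpt8* pattern. The other genes of the list were not highest on that array, with *Prss34* at -5.67 and *Il3ra* at -0.34 by the probe used in the sum. The part of other cells or of pituitary tissue in the *Mcpt10* result was not tested. The other 2 pituitary-rich arrays, OUM arrays 1 and 2, had *Mcpt10* in the middle of the range of all arrays.

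**Figure D4:**
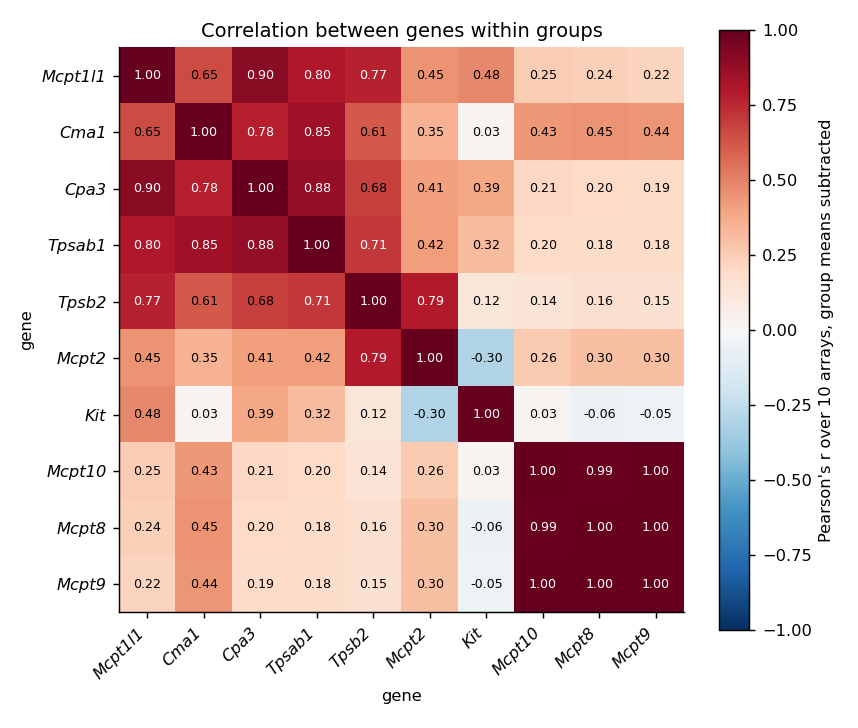
Pearson's r between genes over 10 arrays after subtracting each group's mean (both axes list genes, colour gives r). *Mcpt1l1*, *Cma1*, *Cpa3*, *Tpsab1* and *Tpsb2* form a block with r of 0.61 to 0.90, and *Mcpt10*, *Mcpt8* and *Mcpt9* a second block with r of 0.99 or more. The first block is not sharply bounded, since *Mcpt2* had r = 0.79 with *Tpsb2*. Within slide 1 (7 arrays, not drawn), *Cma1* had r = 0.97 with *Mcpt10*, against 0.66 to 0.80 with the other genes of the first block.

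The spread among rats was wide for most members. The SD within groups of *Cma1* was 0.49, larger than that of 95.5% of the 2402 tested probes of like level (within 0.5 log2 units of its mean), whose median SD was 0.17. That of *Mcpt1l1* was 0.39, larger than in 90.7% of probes of like level, and that of *Mcpt10* was 0.92, larger than in 98.5%. *Tpsb2*, with 0.22, lay at the middle of its like (51.7%), and *Kit*, with 0.10, was below the middle (28.9%).

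Against 13422 probes that carry a symbol and that all 10 arrays detected, those most like *Cpa3* within groups were *Mcpt1l1* (r = 0.90) and *Tpsab1* (r = 0.88), followed by *Steap2* (0.86), *Pum3* (0.85) and *Plac9* (0.85). The 5 genes most like *Mcpt1l1*, each counted once where several probes read it, were *Arl5a* (0.91), *Coa7* (0.91), *Plac9* (0.90), *Iqgap3* (0.89) and *Vav3* (0.89), of which none is a mast cell protease. *Tpsab1* stood at rank 16 and *Tpsb2* at rank 24 for *Mcpt1l1* among 13421 probes, with *Cma1* at rank 106 and *Mcpt10* at rank 2045, and *Cpa3* was not ranked because 2 naive arrays did not detect it. For *Mcpt10*, added after its values were seen, the most alike were *Mcpt9* (1.00), *Mcpt8* (0.99), *Hp* (0.93), *Pglyrp1* (0.93) and *Napsa* (0.93). With 10 arrays and so many probes, high values arise for unrelated genes, and no shared function is read from these ranks.

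Of 31 listed genes of the chymase locus and its relatives, 21 were matched to a probe, 13 were well above background on at least 1 array and 6 were tested, among them the *Mcpt1* entry that is the *Mcpt2* probe described above. None of the 6 tested passed an adjusted p of 0.05 in limma or by the methods' t-test, and in limma 0 passed an unadjusted p of 0.05 in either direction. The genes not matched to a probe here include *Mcpt1l2*, *Mcpt1l3* and *Mcpt1l4*. The study lists *Mcpt1l4* among its upregulated genes on these arrays, so these counts leave out a relative that it reported. *Mcpt3* was not well above background on any array. *Mcpt8l2* was well above background on 4 OUM and 2 naive arrays and its highest value, -4.80, was on naive array 1, as for *Mcpt8*. *Prss34*, a serine protease of mast cells and basophils in the mouse, was well above background on 4 OUM and 3 naive arrays, from -5.71 to -5.12 on OUM arrays and from -6.05 to -5.59 on naive arrays.

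The other genes of mast cell function were read from a list of 89 genes of receptors and signalling, transcription factors, granule contents, lipid mediators and cytokines, of which 82 had a probe and 61 were tested with 77 probes. None passed an adjusted p of 0.05 in limma, and 0 did by the methods' t-test. At an unadjusted p under 0.05, 6 probes were higher on OUM arrays and 2 were lower, of 77, against 4.65% and 3.72% of all probes, and the median difference was 0.07. Of the list's probes, 3 of the higher and 1 of the lower belonged to the IgE receptor and its signalling (14 genes tested), 2 of the higher to the transcription factors (8 genes), 1 of the higher to the cytokines (5 genes) and 1 of the lower to the granule contents (13 genes). *Inpp5d*, the phosphatase SHIP1 that dampens IgE receptor signalling, was the 1 gene with a probe whose groups did not overlap, against 0.929% of all probes apart in that direction. That probe was well above background on 5 OUM and 4 naive arrays, so it entered the comparison through the OUM arrays alone. By that probe the signal of *Inpp5d* was -5.45, -5.56, -5.59, -5.16 and -5.62 on OUM arrays and -6.03, -5.70, -5.79, -5.95 and -5.76 on naive arrays. The difference was 0.37 (SE 0.0983, adjusted p = 0.415 in limma), while its other probe differed by 0.08 (adjusted p = 0.881). *Lat2*, an adaptor of the IgE receptor, had the largest difference in size among the tested probes of the list, -0.60 (SE 0.753, adjusted p = 0.874), which came from naive array 4 alone at -1.27 while the other 4 naive arrays lay between -5.74 and -5.18 and OUM arrays between -5.58 and -4.81.

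*Gata2*, a transcription factor that mast cells need, and *Hdc*, the enzyme that makes histamine, are named here after their values were seen. *Gata2* averaged -5.48 ± 0.16 on OUM arrays and -5.77 ± 0.19 on naive arrays, a difference of 0.29. On 4 of 5 OUM arrays it was above every naive array, and in limma its adjusted p was 0.531. *Gata2* was well above background on 5 OUM and 4 naive arrays, so it entered the comparison through the OUM arrays alone. *Hdc* averaged -3.70 ± 0.35 and -3.82 ± 0.50, a difference of 0.13 (limma adjusted p = 0.914). *Fcer1a*, the chain of the IgE receptor that binds IgE, was well above background on 2 OUM and 1 naive arrays by one of its probes and on 0 arrays by the other. The defining markers of connective tissue mast cells (8 genes, of which 5 are members) summed to 0.429 to 0.541 on OUM arrays and 0.342 to 0.498 on naive arrays, and 4 of the 8 were well above background on all 10 arrays. In the same units, *Kit*, which other cells also make, was 0.189 to 0.216 on OUM arrays and 0.187 to 0.225 on naive arrays, so it was a large part of each sum. The other 7 genes together were 0.215 to 0.338 on OUM arrays and 0.155 to 0.304 on naive arrays. *Cpa3*, *Tpsb2*, *Cma1* and *Ms4a2* among them were chosen on this contrast, so nothing is read from these ranges.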

How the data were processed

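TG RNA of 5 OUM model rats and 5 naive rats was labelled with Cy3 and hybridized to Agilent SurePrint G3 Rat GE arrays, 1 per rat. The authors scanned the arrays with Agilent Feature Extraction 10.7.1.1, and the deposited files give the processed signal, an intensity after background subtraction and detrending, per spot. The authors' value table was used as an alternative and holds this signal on a linear scale, divided per array by a constant near its 75th percentile. Outlier spots were left out, spots of a probe were averaged, and values are log2 of this deposited intensity minus log2 of each array's 75th percentile (1910.2 to 2174.2 signal units; 58717 gene spots). A probe was tested when all its spots were marked as well above background on the 5 arrays of either group. Accessions gave 18438 of 30367 probes a symbol through the RefSeq table of GRCr8, used for names and for the printed sequences only, since the array annotation names another build.

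All 21521 probes were compared with limma 3.58.1 in R 4.3.3 (two-sided, Benjamini-Hochberg, threshold 0.05), which was tested on simulated data. Correlations used exact permutation within groups (14400 orders, 78 pairs) in numpy 2.4.6. The members and lists were chosen with earlier results of these data known. Named genes were all members, list genes past the threshold, without overlap or with the 2 largest differences, the relatives, and the 5 genes most like *Mcpt1l1* and *Cpa3*; the pairs, the 5-gene mean and *Mcpt10* as a further gene to compare with were added after the values were seen. Alternatives were other normalizations, background corrections and filters, the slide, the replicate number, other tests, the authors' table and arrays left out. The number of arrays limits the precision.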

Additional observations from a re-analysis of the deposited data

Results flagged for a closer look

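Among 20 groups of 5 arrays (10 genes in 2 groups), 2 held an array that stood far from the other 4 by Dixon's criterion, and chance alone marks about 5% of groups. *Mcpt2* was -6.39 on OUM array 1, and the nearest OUM array was at -5.46 (gap 0.803 of the whole range). *Cpa3* was -6.64 on naive array 5, and the nearest naive array was at -5.73 (gap 0.819 of the range).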

How the results depend on the processing

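The count of called probes over the whole array, 0 in the main comparison, was 4 with scaling to the array median, 1 with the normexp background correction, 2 with probes well above background on all 10 arrays, 4 with the slide as a block, 4 on slide 1 alone, 185 on slide 2 alone (3 arrays), 1 by the methods' t-test, 0 with the replicate block, and 0 to 1 with each array left out in turn. Same-numbered rats share only a number (correlation of their deviations -0.09 to 0.32, and 1 of 5 numbers was its own best match). None of the 8 tested members was called under any of these. On slide 2 alone 1 gene of the mast cell list was called. The cause was not tested, and slide 2 holds 1 naive array, whose spread is assumed to be that of the OUM arrays. Members whose groups of arrays did not overlap numbered 6 of 8 on slide 2 alone (74.2% of all probes there), 4 of 8 without the 3 pituitary-rich arrays (7.9% of all probes), and 0 to 2 with each array left out in turn (2.1% to 4.32% of all probes); nothing is read from these, since the members were chosen on this contrast. Over the alternatives the difference of *Mcpt1l1* ran from 0.33 (normexp) to 0.79, of *Cma1* from 0.39 to 0.89, of *Cpa3* from 0.17 (normexp) to 0.68, of *Tpsab1* from 0.17 to 0.61 and of *Tpsb2* from 0.14 (normexp) to 0.54, none below 0. *Mcpt2* ran from -0.23 to 0.54, *Mcpt10* from -0.19 to 0.66 and *Kit* from -0.07 to 0.04. Dim probes and 5 rats per group limit what these arrays resolve.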
